A study of Mus musculus with 16 samples.

Results

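The genes described here are 10 immediate early transcription factor genes: Fos, Fosb, Jun and Junb of the AP-1 family, Egr1, Egr2 and Egr3, and Nr4a1, Nr4a2 and Nr4a3. They were picked by symbol from 22180 genes measured on 16 gene arrays, each has 1 probe set that carries no other symbol, and all 10 passed the filter on dim genes. The cells were regulatory T (Treg) cells, which keep other T cells in check, sorted by a Foxp3-YFP reporter from spleens and lymph nodes of C57BL/6 mice. There were 4 groups of 4 arrays: rapamycin-treated Atg7fl/flFoxp3-Cre (Atg7-/-), untreated Atg7-/-, rapamycin-treated Atg7+/flFoxp3-Cre (Atg7+/-) and untreated Atg7+/-. Every group carries the Foxp3-driven Cre and at least 1 floxed Atg7 allele, so there is no wild-type group, and the deletion is made only where Foxp3 has been on. Rapamycin, an inhibitor of the kinase mTOR, was given to the mice by injection (4 mg per kg a day for 5 days), and the labels name no vehicle group. All sorted cells were then cultured for 4 h on antibodies to CD3 and CD28. No unstimulated cells were analysed here, so the induction of these genes by stimulation was not measured. The labels do not say which arrays came from separate mice, so p-values here measure only the spread between arrays of a group, part of which may be technical. RNA was amplified from nanogram amounts before labelling.

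Immediate early genes are transcribed within minutes of a stimulus, without new protein synthesis, from promoters held ready by serum response factor, ternary complex factors and CREB. In T cells the T cell receptor drives them through the MAP kinases and calcium. Fos and Jun proteins pair to form AP-1, which binds with NFAT at cytokine genes. Egr proteins are zinc finger factors, of which Egr2 and Egr3 restrain T cell activation, and the Nr4a proteins are orphan nuclear receptors that support Foxp3 expression and the Treg cell state in mice. The transcripts of most of these genes decay quickly, so a level after hours of stimulation is not the early peak.

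Promoters of 5 of the genes called in some comparison are given first, because the members are known for sharing control elements. RefSeq promoter windows (GRCm38.p6) were used for 8 of the 10 genes, all but Egr1 and Egr3, with 5 start sites for Egr2, and the 250 bases before each start were searched on both strands. Capitals mark matches: the Egr site GCGNGGGCG, the CArG box bound by serum response factor, and TGACG, the core of the cAMP response element. The windows of Fos (chr12:85473640-85473889, plus strand), Fosb (chr7:19310046-19310295, minus strand), Junb (chr8:84978749-84978998, minus strand) and Nr4a1 (chr15:101266596-101266845, plus strand) are whole, and for Egr2 the bases around the CArG box are shown (chr10:67537787-67537816, plus strand).
Fos: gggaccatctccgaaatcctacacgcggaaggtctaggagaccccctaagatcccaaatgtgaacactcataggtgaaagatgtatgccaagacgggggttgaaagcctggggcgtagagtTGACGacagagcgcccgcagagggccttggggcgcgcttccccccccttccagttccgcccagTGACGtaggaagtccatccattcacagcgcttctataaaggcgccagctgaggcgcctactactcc
Fosb: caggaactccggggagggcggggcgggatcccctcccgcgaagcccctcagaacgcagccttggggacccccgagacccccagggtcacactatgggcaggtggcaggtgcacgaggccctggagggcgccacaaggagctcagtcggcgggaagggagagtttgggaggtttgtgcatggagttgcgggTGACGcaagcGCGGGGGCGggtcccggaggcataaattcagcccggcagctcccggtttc
Junb: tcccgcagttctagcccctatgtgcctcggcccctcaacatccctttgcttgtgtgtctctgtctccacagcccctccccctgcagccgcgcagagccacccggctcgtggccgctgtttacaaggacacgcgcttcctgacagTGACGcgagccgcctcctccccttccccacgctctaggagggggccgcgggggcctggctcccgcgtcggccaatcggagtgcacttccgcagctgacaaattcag
Nr4a1: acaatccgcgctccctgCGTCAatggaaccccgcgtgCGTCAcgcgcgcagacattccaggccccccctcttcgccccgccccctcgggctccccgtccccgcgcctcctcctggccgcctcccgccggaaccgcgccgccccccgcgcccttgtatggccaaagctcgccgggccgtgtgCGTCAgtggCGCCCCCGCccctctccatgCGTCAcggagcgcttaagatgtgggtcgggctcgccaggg
Egr2: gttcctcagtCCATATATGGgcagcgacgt
TGACG lay in at least 1 window of 7 of the 8 genes, all but Jun, while 17.8% of 32851 promoter windows of all genes hold it. This short motif was picked after the windows had been read. It is part of the full element TGACGTCA, which none of the 8 genes held (1.55% of all windows). The Egr site lay before Fosb, Nr4a1 and Nr4a2 (4.70% of all windows). The CArG box lay in 4 of the 5 Egr2 windows, 3 of which overlap and share 1 copy, and in no other gene of the 8 searched (1.47% of all windows). Elements farther than 250 bases before a start were not searched. The AP-1 site TGANTCA, the Nr4a monomer site AAAGGTCA and the ETS core CCGGAAG had no match in the 8 genes (6.75%, 1.34% and 6.91% of all windows). A match is a description of these letters and not a bound site.

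The values are log2 signals made with RMA by the authors, and a change of 1 on this scale is a doubling if the base is 2, as was assumed. Arrays correlated at 0.9733 to 0.9939 over 16760 genes tested. Rapamycin Atg7-/- replicate 3 lay farthest from its group, with a root mean square deviation of 0.2422 against 0.1365 to 0.2142 for the other 15 arrays, and the main changes of that group are also given without it. Atg7 differed by -0.28 between untreated genotypes (SE 0.134, limma adjusted p = 0.299), but its probe set may lie outside the deleted part and checks nothing. Of 12 markers that define Treg cells 11 were measured and all 11 passed the dim filter, including Foxp3 at 10.99, 10.86, 11.34 and 11.26 in rapamycin and untreated Atg7-/- and rapamycin and untreated Atg7+/- cells; the other marker, Trac, was not measured. In sorted bulk cells, fewer cells of a type and less RNA per cell cannot be told apart.

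**Figure D1:**
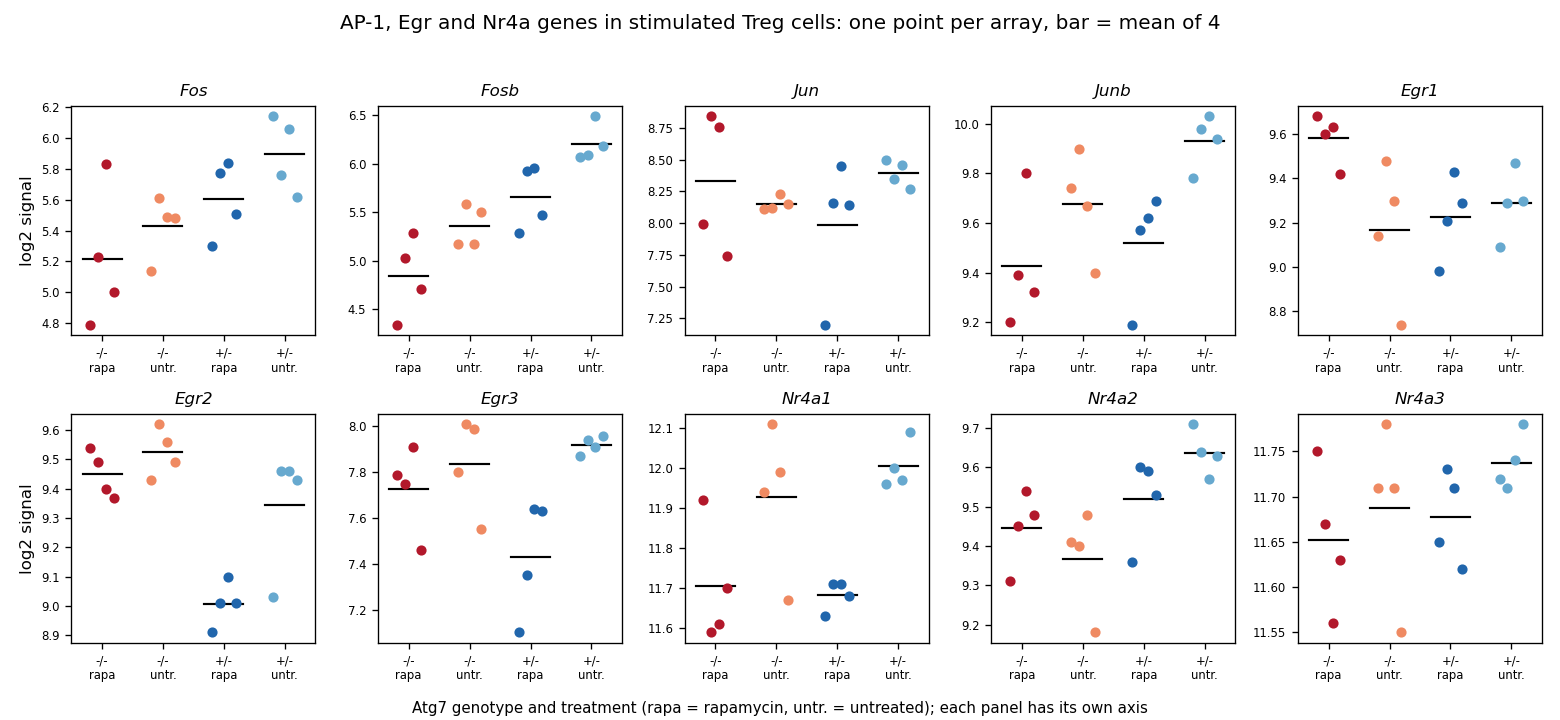
Log2 signal of each of the 10 genes on every array (points) in the 4 groups, with the mean of 4 arrays as a bar; each panel has its own vertical axis. Fosb has its lowest mean (4.84) in rapamycin Atg7-/- cells, Egr2 has its lowest mean (9.01) in rapamycin Atg7+/- cells, and Nr4a3 stays between 11.55 and 11.78 on all 16 arrays.

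Fosb, a Fos family partner of Jun proteins, was the member that differed most with Atg7 genotype. Fosb and Fos were also the dimmest members, with means of 5.52 and 5.53 over the 16 arrays (percentiles 49.4 and 49.7 of the genes tested). The next was Egr3 at 7.73 (percentile 78.7). The lowest Fosb value, 4.34 on rapamycin Atg7-/- replicate 1, lay below that array's median of 4.586 over all probe sets. The Fosb values follow. In untreated Atg7-/- cells the 4 Fosb arrays read 5.17, 5.59, 5.17 and 5.50, against 6.07, 6.09, 6.49 and 6.18 in untreated Atg7+/- cells. No Atg7-/- array reached the lowest Atg7+/- array, and Fosb was 1.80-fold lower (log2 change -0.85, SE 0.188, limma adjusted p = 0.0184). Under rapamycin the arrays read 4.34, 5.03, 5.29 and 4.71 in Atg7-/- cells, against 5.29, 5.93, 5.96 and 5.47 in Atg7+/- cells. These groups touched, with the highest Atg7-/- array at 5.288 and the lowest Atg7+/- array at 5.289, and Fosb was 1.76-fold lower (-0.82, SE 0.188, limma adjusted p = 0.0258). These comparisons share no array, but both p-values rest on a spread pooled over all 16 arrays and are not independent. In untreated cells the call was lost without Atg7-/- replicate 1 or 3 or Atg7+/- replicate 3 (limma adjusted p up to 0.0647). Under rapamycin it was lost without Atg7-/- replicate 1 or 4 or Atg7+/- replicate 2 or 3, on renewed quantile normalization or median centring, and with only the 8 arrays compared (limma adjusted p up to 0.117).

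With rapamycin Fosb had a negative log2 change in both genotypes, close to the threshold and called in neither, though called under 4 of 25 alternatives in Atg7-/- cells and 8 of 25 in Atg7+/- cells. The change was -0.52 in Atg7-/- cells (SE 0.188) and -0.55 in Atg7+/- cells (SE 0.188), with the same limma adjusted p = 0.0591. With the replicate number as a block, 1 of these alternatives, both changes were called (limma adjusted p = 0.0195 and 0.0201). Without rapamycin Atg7-/- replicate 3 the change in Atg7-/- cells became -0.67 and was called (limma adjusted p = 0.0164). In Atg7+/- cells every rapamycin array lay below every untreated array. Averaging the contrasts over the other factor, a step added after the data had been seen, uses all 16 arrays. Fosb then fell with Atg7 loss by 0.83 (SE 0.133, limma adjusted p = 0.000725) and with rapamycin by 0.53 (SE 0.133, limma adjusted p = 0.0052). Both calls held under all 24 alternatives run. The rapamycin effects differed between genotypes by 0.03 (95% interval -0.53 to 0.59, limma adjusted p = 0.991).

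Fos, the best known immediate early gene, had differences of the same sign. Untreated Atg7-/- arrays read 5.14, 5.61, 5.49 and 5.48, against 6.14, 5.76, 6.06 and 5.62 in untreated Atg7+/- cells. The groups just failed to overlap (5.61 against 5.62), and the log2 change of -0.47 was not called (SE 0.186, limma adjusted p = 0.193). Rapamycin Atg7-/- arrays read 4.79, 5.23, 5.83 and 5.0, against 5.30, 5.77, 5.84 and 5.51 in rapamycin Atg7+/- cells (-0.39, SE 0.186, limma adjusted p = 0.272). Replicate 3 stood at 5.83 above the other 3 Atg7-/- arrays; without it the change was -0.60 (limma adjusted p = 0.0663). Averaged over genotypes, the rapamycin change of -0.26 was not called with all arrays (limma adjusted p = 0.146) and was -0.36 without that array (limma adjusted p = 0.0159). Averaged over treatments, Fos was 1.35-fold lower in Atg7-/- cells (-0.43, SE 0.132, limma adjusted p = 0.0408). That call was lost on renewed quantile normalization, on median centring, and without any 1 of 12 arrays, all but rapamycin Atg7-/- replicate 3, untreated Atg7-/- replicate 2, rapamycin Atg7+/- replicate 1 and untreated Atg7+/- replicate 4 (limma adjusted p up to 0.115).

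Jun, the founding Jun protein gene, passed no test, and had the highest SD of the members in both rapamycin groups. Rapamycin Atg7-/- arrays read 7.99, 8.84, 8.76 and 7.74, and rapamycin Atg7+/- arrays 7.20, 8.16, 8.45 and 8.14. Untreated arrays lay close together, at 8.11, 8.12, 8.23 and 8.15 in Atg7-/- cells and 8.50, 8.35, 8.46 and 8.27 in Atg7+/- cells. The SD was thus 0.547 and 0.543 in the rapamycin groups, against 0.052 and 0.103 in the untreated groups; this difference in spread was not tested. The untreated genotypes did not overlap although the pooled spread left the change of -0.24 far from a call (SE 0.236, limma adjusted p = 0.658). Under rapamycin the genotype change was 0.34, and 0.20 without Atg7-/- replicate 3; the rapamycin change in Atg7-/- cells was 0.18, and 0.04 without that array, none of them called. The 95% interval for Atg7 loss was -0.74 to 0.26 without and -0.15 to 0.84 with rapamycin.

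Junb, the Jun protein that pairs with Batf in effector Treg cells, fell with rapamycin in Atg7+/- cells. Rapamycin arrays read 9.19, 9.57, 9.62 and 9.69, against 9.78, 9.98, 10.03 and 9.94 in untreated Atg7+/- cells, with no overlap. The fall was 1.33-fold (-0.42, SE 0.136, limma adjusted p = 0.0498), just inside the threshold. The call was lost on median centring, without the dim filter, and without any 1 of 11 arrays, all but rapamycin Atg7-/- replicates 1 and 3, untreated Atg7-/- replicates 2 and 4 and rapamycin Atg7+/- replicate 4 (limma adjusted p up to 0.161). In Atg7-/- cells rapamycin arrays read 9.20, 9.39, 9.80 and 9.32, against 9.74, 9.90, 9.67 and 9.40 in untreated cells, overlapping, with -0.25 (SE 0.136, limma adjusted p = 0.204). Without rapamycin replicate 3, at 9.80, this became -0.37 (limma adjusted p = 0.0467). Averaged over genotypes, Junb was 1.26-fold lower under rapamycin (-0.33, SE 0.0963, limma adjusted p = 0.0133), a call that held in all 24 alternatives. Between genotypes it was not called (-0.26 untreated and -0.09 under rapamycin, limma adjusted p = 0.349 and 0.796), and without rapamycin Atg7-/- replicate 3 the second value was -0.21 (limma adjusted p = 0.461).

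Egr2, a zinc finger factor that limits T cell activation, was the 1 member higher in Atg7-/- cells by a test. Under rapamycin Atg7-/- arrays read 9.54, 9.49, 9.40 and 9.37, against 8.91, 9.01, 9.10 and 9.01 in Atg7+/- cells. The groups were well apart and Egr2 was 1.36-fold higher (0.44, SE 0.097, limma adjusted p = 0.0212). With only the 8 arrays compared, or without rapamycin Atg7+/- replicate 1, 2 or 4, the call was lost, at adjusted p up to 0.0789. In untreated cells the arrays read 9.43, 9.62, 9.56 and 9.49 in Atg7-/- cells and 9.03, 9.46, 9.46 and 9.43 in Atg7+/- cells (0.18, SE 0.097, limma adjusted p = 0.366). There 3 of the 4 Atg7+/- arrays lay within the Atg7-/- range and replicate 1 lay 0.40 below them; without that array the change was 0.07 (limma adjusted p = 0.748). Averaged over treatments Egr2 was 1.24-fold higher in Atg7-/- cells (0.31, SE 0.0686, limma adjusted p = 0.0074), and this call held in all 24 alternatives. Egr1 and Egr3 moved in the same direction as Egr2 between rapamycin genotypes, but neither was called. Their changes were 0.36 (SE 0.136, limma adjusted p = 0.162) and 0.30 (SE 0.129, limma adjusted p = 0.223). Between untreated genotypes they were -0.12 and -0.08, also not called.

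Egr2 and Egr3 fell with rapamycin in Atg7+/- cells. The fall of Egr2 was 1.26-fold (-0.34, SE 0.097, limma adjusted p = 0.0267), and untreated replicate 1, at 9.03, lay inside the rapamycin range. Without that replicate the change was -0.44 (limma adjusted p = 0.00388), and without rapamycin Atg7+/- replicate 1, 2 or 4 or untreated Atg7+/- replicate 2, 3 or 4 the call was lost (limma adjusted p up to 0.0818). The call was also lost with only the groups compared (limma adjusted p = 0.0519). Egr3, the close relative of Egr2, read 7.10, 7.35, 7.64 and 7.63 under rapamycin, against 7.87, 7.94, 7.91 and 7.96 in untreated Atg7+/- cells. These groups did not overlap and Egr3 was 1.40-fold lower (-0.49, SE 0.129, limma adjusted p = 0.0178). Leaving out the rapamycin array at 7.10 or that at 7.35 ended this call, at adjusted p of 0.0640 and 0.0520. In Atg7-/- cells neither was called, with -0.08 for Egr2 (95% interval -0.28 to 0.13) and -0.11 for Egr3 (-0.38 to 0.16). The difference of the rapamycin effects was not called either, at 0.26 for Egr2 (SE 0.137, limma adjusted p = 0.797) and 0.38 for Egr3 (SE 0.183, limma adjusted p = 0.795).

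Egr1, the family member known as a fast reporter of MAP kinase signalling, moved the other way under rapamycin in Atg7-/- cells. Rapamycin Atg7-/- arrays read 9.68, 9.60, 9.63 and 9.42, against 9.14, 9.48, 9.30 and 8.74 in untreated Atg7-/- cells. The groups overlapped between 9.42 and 9.48, and Egr1 was 1.34-fold higher under rapamycin (0.42, SE 0.136, limma adjusted p = 0.0369). Without untreated replicate 4, at 8.74, the change was 0.28 (limma adjusted p = 0.118), and the call was also lost without untreated replicate 1 or rapamycin replicate 1, 2 or 3, with array weights and with only the 8 arrays compared. In Atg7+/- cells rapamycin arrays read 8.98, 9.21, 9.43 and 9.29, against 9.09, 9.29, 9.47 and 9.30 in untreated cells (-0.06, SE 0.136, limma adjusted p = 0.82). The difference between these effects was 0.48 (95% interval 0.07 to 0.88, limma adjusted p = 0.762, unadjusted p = 0.0228 in limma). Egr1 had the smallest unadjusted p for that difference among the 10 members, and no gene of 16760 was called in it.

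Nr4a1 (Nur77), an orphan nuclear receptor used as a reporter of T cell receptor signal strength, fell with rapamycin in Atg7+/- cells. Its arrays read 11.63, 11.71, 11.71 and 11.68 under rapamycin, against 11.96, 12, 11.97 and 12.09 in untreated cells. The groups were tight and separate, and the fall was 1.25-fold (-0.32, SE 0.0963, limma adjusted p = 0.0325). The call was lost without rapamycin Atg7+/- replicate 1, 2 or 4 or any untreated Atg7+/- array (limma adjusted p up to 0.0844). In Atg7-/- cells rapamycin arrays read 11.92, 11.59, 11.61 and 11.70, against 11.94, 12.11, 11.99 and 11.67 in untreated cells. Rapamycin replicate 1 and untreated replicate 4 crossed over, and the change of -0.22 was not called (SE 0.0963, limma adjusted p = 0.109). Averaged over genotypes the change was -0.27 (SE 0.0681, limma adjusted p = 0.00527), a call that held in all 24 alternatives. Atg7 genotype left Nr4a1 within -0.28 to 0.13 in untreated cells and -0.18 to 0.23 under rapamycin (95% intervals).

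Nr4a2 (Nurr1) passed no test in the main fit. Its untreated arrays did not overlap between genotypes, at 9.41, 9.40, 9.48 and 9.18 in Atg7-/- cells and 9.71, 9.64, 9.57 and 9.63 in Atg7+/- cells (-0.27, SE 0.0871, limma adjusted p = 0.103). The untreated change was called only with the trend and robust options of limma (adjusted p = 0.0452). Under rapamycin the genotype change was -0.08 (95% interval -0.26 to 0.11). Averaged over treatments it was -0.17 (SE 0.0616, limma adjusted p = 0.0793). That average was called with the trend and robust options and without rapamycin Atg7+/- replicate 1 (limma adjusted p = 0.0335 and 0.0477). Nr4a3 (Nor1) varied least of all 10 members, between 11.55 and 11.78 over the 16 arrays. Its intervals for Atg7 loss were -0.21 to 0.11 and -0.18 to 0.13, and for rapamycin -0.19 to 0.13 in Atg7-/- cells and -0.22 to 0.10 in Atg7+/- cells.

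**Figure D2:**
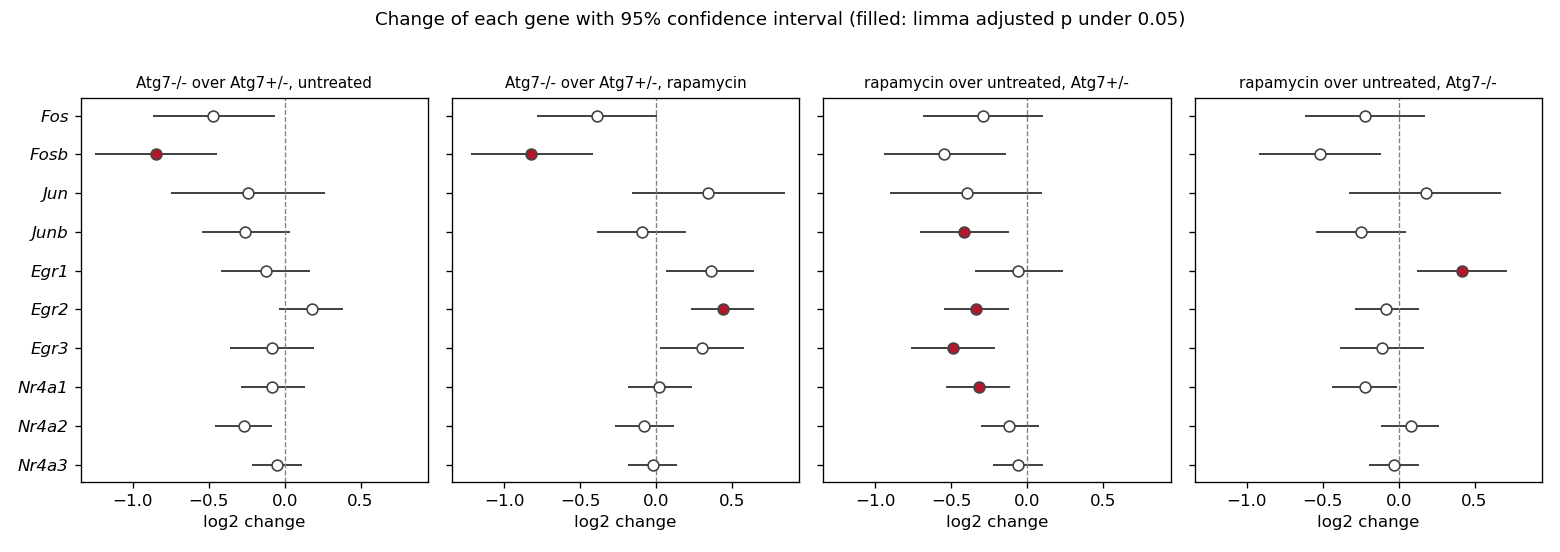
Log2 change of each gene (points) with its 95% confidence interval from the limma fit (lines) in 4 comparisons; filled points had an adjusted p under 0.05 over all genes. Fosb is called in both genotype comparisons, and Junb, Egr2, Egr3 and Nr4a1 are called lower under rapamycin in Atg7+/- cells.

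Counted together, 1 of the 10 genes was called between untreated genotypes, Fosb, where 3.14% of all genes tested were called, 1.75% higher and 1.39% lower. The members' median was -0.18, against 0.02 for all genes, and 9 of 10 were below 0. Their 4 arrays a group did not overlap for 4 genes, all lower (Fos, Fosb, Jun and Nr4a2), as for 5.97% of all genes, while 8.17% did not overlap in the higher direction. Under rapamycin 2 of 10 were called between genotypes, Fosb lower and Egr2 higher, against 3.24% of all genes called, 1.91% higher and 1.33% lower, and the members' median was -0.00. These 2 genes were also the 2 without overlap between groups (Fosb barely), as were 6.01% of all genes in the higher and 3.76% in the lower direction. Rapamycin in Atg7+/- cells gave 4 calls, all lower, against 14.1% of all genes called, 6.03% higher and 8.11% lower. All 10 members were below 0, with a median of -0.33 against -0.03 for all genes. The groups did not overlap for 4 members, all lower, as for 13.1% of all genes in the lower and 9.64% in the higher direction. Rapamycin in Atg7-/- cells gave 1 call, Egr1, against 20.0% of all genes called, 8.83% higher and 11.1% lower, and no member's groups were without overlap (8.76% of all genes higher, 11.6% lower). For the difference of the rapamycin effects limma called 0 of 10 members and 0.00% of all genes; 1 member, Egr1, had an unadjusted p under 0.05. The 2 rapamycin comparisons share no arrays with each other, but each shares a group with both genotype comparisons. Averaged over treatments, 2 members fell with Atg7 loss (4.49% of all genes) and 1 rose (7.50%). Averaged over genotypes, 5 members fell with rapamycin (19.2% of all genes) and none rose (13.8%). Of these, Egr2 (-0.21, limma adjusted p = 0.0277) lost its call without rapamycin Atg7-/- replicate 4, untreated Atg7-/- replicate 2, rapamycin Atg7+/- replicate 1 or untreated Atg7+/- replicate 2, 3 or 4 (limma adjusted p up to 0.0594).

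Single arrays also differed within groups. The mean deviation of the 4 AP-1 genes from their 16-array means was -0.65, -0.11, 0.19 and -0.53 in rapamycin Atg7-/- cells and -0.19, 0.08, -0.08 and -0.09 in untreated Atg7-/- cells. In Atg7+/- cells it was -0.48, 0.13, 0.24 and -0.03 with rapamycin and 0.40, 0.32, 0.53 and 0.28 without. The untreated Atg7+/- arrays were thus the 4 highest of 16. In both rapamycin groups the mean rose in the order of replicates 1, 4, 2 and 3, so these single arrays may share a cause linked to their number, which was not tested. Rapamycin Atg7+/- replicate 1 was lowest of its group for Fos, Fosb, Jun, Junb, Egr1, Egr2, Egr3, Nr4a1 and Nr4a2, 9 of the 10 members. Without that array the rapamycin change in Atg7+/- cells was -0.31 for Junb, -0.31 for Egr2, -0.38 for Egr3 and -0.31 for Nr4a1, none of them called (limma adjusted p = 0.161, 0.0769, 0.064 and 0.0797); for Egr2 and Nr4a1 the size of the change hardly moved.

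A wider list of 29 immediate early genes, 27 of them tested, had falls and no rises between genotypes. In untreated Atg7-/- cells, where 1.39% of all genes were called lower and 1.75% higher, 5 fell and none rose, with a median of -0.18. They were led by Rgs2, a regulator of G protein signalling (-0.99), the salt-inducible kinase Sik1 (-0.72), the MAP kinase phosphatase Dusp1 (-0.58) and the antiproliferative gene Btg1 (-0.56); the fifth was Btg2 (-0.45). Under rapamycin, where 1.33% of all genes were called lower and 1.91% higher, 5 also fell and none rose, with a median of -0.09. These 5 were Klf4 (-1.26), Rgs2 (-1.0), Sik1 (-0.67), the TGF-beta-inducible factor Klf10 (-0.55) and Tnfaip3, an NF-kappaB inhibitor (-0.47). Limma adjusted p was 0.00275 and 0.00681 for Sik1, and 0.0397 and 0.0385 for Rgs2, in untreated and rapamycin cells. Averaged over treatments 9 of 27 fell and none rose, beside 4.49% of all genes called lower. With rapamycin 8 of 27 were called in Atg7-/- cells and 4 of 27 in Atg7+/- cells, beside 20.0% and 14.1% of all genes, so that the second share lies near that of all genes. Calls in Atg7-/- cells went both ways: 5 fell and 3 rose, among them Ier3 (-0.88) and the quiescence factor Klf2 (0.74), and in Atg7+/- cells 3 fell and 1 rose, Ier3 (-0.69), Egr4 (-0.44), the mRNA decay factor Zfp36l1 (-0.38) and the activation marker Cd69 (0.30).

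**Figure D3:**
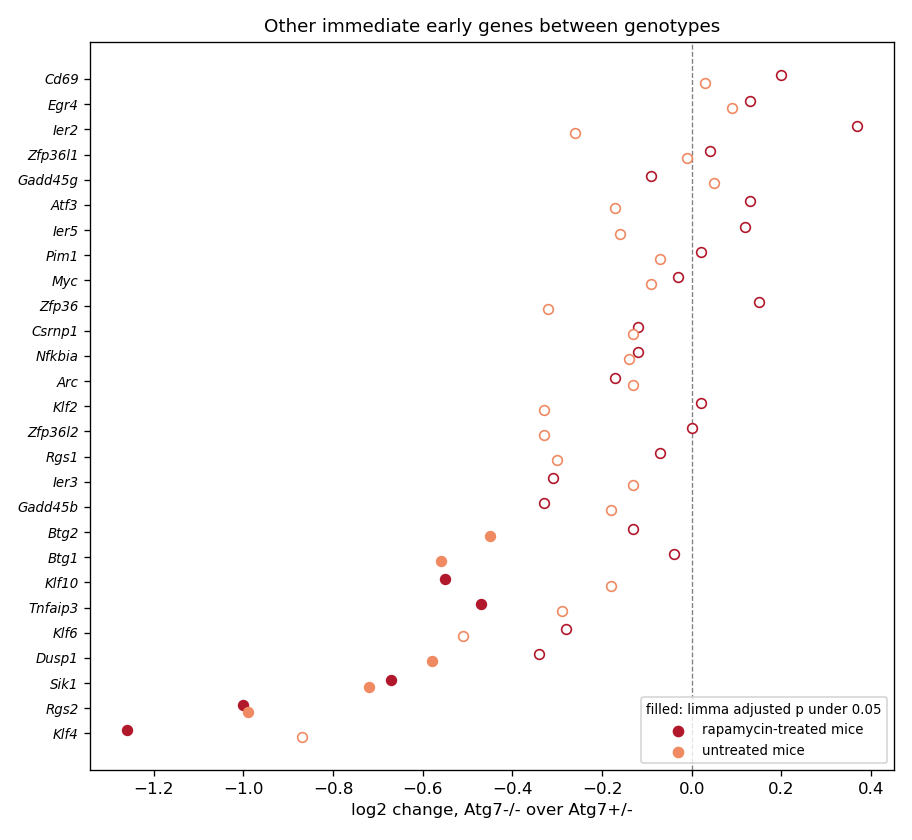
Log2 change of Atg7-/- over Atg7+/- cells for 27 other immediate early genes (rows), in rapamycin-treated and untreated mice; filled points had a limma adjusted p under 0.05. Rgs2 and Sik1 are called lower in both treatments, and no gene of the list is called higher.

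Of 11 other AP-1 genes tested, 1 was called in each single genotype comparison, Batf, the AP-1 factor that pairs with Jun proteins and IRF4. The shares of all genes called there were 3.14% untreated and 3.24% under rapamycin. Batf is the gene described next. It was 0.60 higher in untreated Atg7-/- cells and 0.59 higher under rapamycin (limma adjusted p = 0.0088 and 0.0144); the second call was lost without rapamycin Atg7+/- replicate 2 and with only the 8 arrays compared (up to 0.0821). Averaged over treatments 2 of the 11 fell with Atg7 loss, the Fos relative Fosl2 (-0.43) and Bach2 (-0.35), beside the rise of Batf (limma adjusted p = 0.00556 and 0.0263 for the falls). In that contrast 4.49% of all genes were called lower and 7.50% higher. With rapamycin Bach2, a repressor that competes for AP-1 sites in T cells, rose by 0.70 in Atg7-/- cells and by 0.63 in Atg7+/- cells (limma adjusted p = 0.00179 and 0.00582). In Atg7-/- cells 3 others fell, Batf3 (-0.63), Jdp2 (-0.42) and Bach1 (-0.31), and in Atg7+/- cells 2 fell, Mafk (-0.46) and Bach1 (-0.30). Rapamycin calls made up 20.0% of all genes in Atg7-/- cells and 14.1% in Atg7+/- cells. Fosl1 was not measured.

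The kinases and factors upstream of the members showed no call between genotypes in any single treatment. Of all genes tested 3.14% were called there in untreated cells and 3.24% under rapamycin. That held for 11 serum response factor, ternary complex and CREB genes (medians -0.03 untreated and -0.04 under rapamycin), 11 MAP kinase pathway genes (-0.07 and -0.06) and 10 calcineurin and NFAT genes (-0.10 and -0.04). Averaged over treatments Elk3 was called higher (7.50% of all genes), and Sos1, Braf, Nfat5 and Nfatc3 lower (4.49%). With rapamycin 20.0% of all genes were called in Atg7-/- cells and 14.1% in Atg7+/- cells. With rapamycin Map2k3, a kinase that activates p38, fell by 0.57 in Atg7-/- cells and by 0.65 in Atg7+/- cells (limma adjusted p = 0.00161 and 0.00093). Of the first list 2 rose and 3 fell in Atg7-/- cells, led by Elk4 (0.43), Elk3 (-0.38) and Crtc2 (-0.31), and 1 rose and 3 fell in Atg7+/- cells, led by Elk3 (-0.47) and the CREB coactivator Crtc2 (-0.40). Of the MAP kinase list 1 rose and 1 fell with rapamycin in Atg7-/- cells, and 2 rose and 2 fell in Atg7+/- cells, among them Sos1 (0.29) and Mapk8 (-0.35). Of the calcineurin and NFAT list 1 rose and 1 fell in Atg7-/- cells, the phosphatase subunit Ppp3cc (0.37) and Nfatc2 (-0.33). The counts of the MAP kinase and calcineurin lists in Atg7-/- cells thus lie near the share of all genes. In Atg7+/- cells 1 rose and 2 fell, Ppp3cb (0.30), Nfatc1 (-0.42) and Nfatc2 (-0.33). Feedback genes of the MAP kinases were mixed: of 13, Dusp1 fell and Spred1 rose (0.40) in untreated Atg7-/- cells, and Spry1 (0.55) and Spred1 (0.34) rose in rapamycin Atg7-/- cells, all against Atg7+/- cells. Of the MAP kinase list Map2k6 was dim and was not tested.

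Genes linked to the Egr and Nr4a factors in T cells were read beside them. Of all genes tested 3.14% were called between untreated genotypes and 3.24% between rapamycin genotypes. With rapamycin 20.0% were called in Atg7-/- cells and 14.1% in Atg7+/- cells. Of 12 tested genes of the Egr list, which holds the corepressors Nab1 and Nab2, 1 rose between untreated genotypes, the inhibitory receptor Lag3 (0.47), and none was called between genotypes under rapamycin, where Egr2 was higher. With rapamycin in Atg7+/- cells, where Egr2 and Egr3 fell, 2 of the 12 fell, Nrp1, a Treg cell surface receptor (-0.85), and Bhlhe40 (-0.37). That count lies near the share of all genes called. In Atg7-/- cells 3 fell, Nrp1 (-0.80), Dgkz, a diacylglycerol kinase (-0.54), and Bhlhe40 (-0.38), and 1 rose, Nab2 (0.46). Of 13 Nr4a-linked genes 2 rose and 2 fell between untreated genotypes, Il4 (2.48), the checkpoint receptor Havcr2 (1.25), Pdcd1 (-0.70) and Foxp3 (-0.40), and under rapamycin 1 rose and 2 fell, Il4 (1.28), Pdcd1 (-0.52) and Ikzf4 (-0.45). In the same list 3 fell and 1 rose with rapamycin in Atg7+/- cells, Ccr8 (-0.92), Pdcd1 (-0.88), Tigit (-0.48) and Tnfrsf18 (0.29). In Atg7-/- cells 7 fell and 1 rose, led by Il4 (-1.44), Havcr2 (-1.31), Ccr8 (-0.98) and Pdcd1 (-0.70).

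By pattern over the 16 arrays, the genes most like the mean of the 4 AP-1 members were Sesn3, an inhibitor of mTOR complex 1 signalling (Pearson's r = 0.949), Gna13, a G protein subunit (0.937), and the tetraspanin Cd9 (0.932). For the 3 Egr genes they were the calcium sensor Stim2 (0.872), the adaptor Grap (0.870) and Scamp3 (0.856), and for the 3 Nr4a genes Traf1 (0.908), Dnajc5 (0.893) and the cytokine gene Lta (0.891). These values describe shared patterns over arrays that fall into 4 groups, taken as the highest of all genes tested. Of these 9 genes Lta alone was called between genotypes in a single treatment, at -0.55 in untreated cells (limma adjusted p = 0.0363). With rapamycin in Atg7+/- cells Cd9 (-0.68), Lta (-0.57) and Scamp3 (-0.32) fell, where 8.11% of all genes were called lower. The 9 genes were picked for following the members over these same arrays. Their calls therefore cannot be weighed against that share.

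Hspa1a, for an inducible 70 kDa chaperone whose probes may also read its near-identical copy Hspa1b, read 4.84, 5.37, 8.27 and 5.33 in rapamycin Atg7-/- cells and 5.29, 6.48, 5.39 and 6.43 in untreated Atg7-/- cells. In Atg7+/- cells it read 6.80, 6.31, 7.20 and 6.48 with rapamycin and 8.43, 8.80, 8.69 and 8.39 without. Like Fosb it was highest in the untreated Atg7+/- arrays, and on rapamycin Atg7-/- replicate 3 it stood far above its group, while Fos was the highest of its group there (5.83 against 5.23 at most). Hspa1a and Hspa1b fell with Atg7 loss in untreated cells (-2.68 and -2.43, limma adjusted p = 0.00732 and 0.0198), while no other gene of the 11 tested in the heat-shock list was called there. The summed level of that list, dominated by other chaperones, ran from 13.49 to 13.67 and 13.47 to 13.62 in rapamycin and untreated Atg7-/- cells, and from 13.49 to 13.57 and 13.63 to 13.66 in rapamycin and untreated Atg7+/- cells. Without replicate 3 the Fosb difference between rapamycin genotypes was -0.97 (limma adjusted p = 0.0143). The part of a stress response in the Fos differences was not tested.

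**Figure D4:**
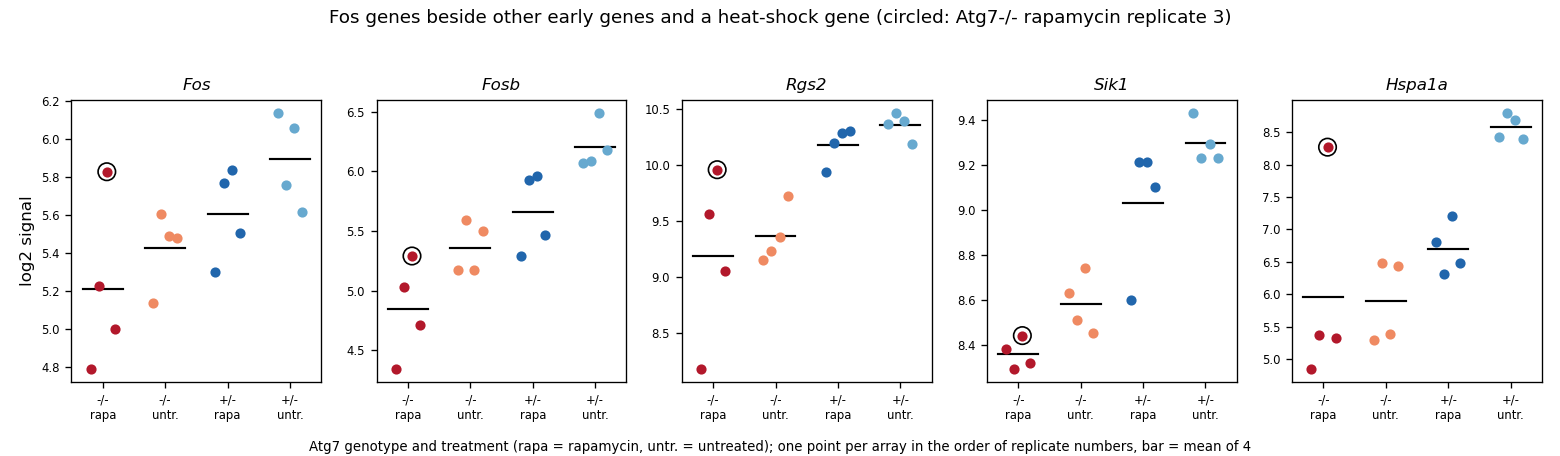
Log2 signal of Fos, Fosb, the early genes Rgs2 and Sik1 and the heat-shock gene Hspa1a on every array (points) in the 4 groups, with group means as bars; rapamycin Atg7-/- replicate 3 is circled. That array is the highest of its group for all 5 genes, and untreated Atg7+/- arrays have the highest mean for each.

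Markers of other cells that could enter the sort were also read on each array. Of 12 myeloid and dendritic cell markers 11 passed the dim filter and Itgam did not. Their summed level was 8.38 to 9.67 in rapamycin and 8.79 to 8.92 in untreated Atg7-/- cells, and 8.56 to 8.95 in rapamycin and 8.42 to 8.75 in untreated Atg7+/- cells. The 9.67 belonged to rapamycin Atg7-/- replicate 3. For 9 measured B cell markers, of which 3 with Ms4a1 were dim, the sums were 7.09 to 7.23 and 7.24 to 7.40 in rapamycin and untreated Atg7-/- cells and 7.05 to 7.29 and 7.21 to 7.38 in Atg7+/- cells in the same order. Of 10 CD8 T and NK cell markers 8 passed, and the sums were 8.84 to 8.99 and 9.09 to 9.17 in Atg7-/- cells, above the 8.26 to 8.48 and 8.66 to 8.70 of Atg7+/- cells. Conventional T cell markers, all 10 measured past the filter, summed to 11.83 to 12.53 and 12.23 to 12.46 in Atg7-/- cells and to 11.68 to 12.06 and 12.17 to 12.22 in Atg7+/- cells. The CD8 T and NK sums separated the genotypes in both treatments as Fosb did, in the other direction. Of the 8 tested genes 2 were called higher in untreated Atg7-/- cells, Gzma and Nkg7, and 2 under rapamycin, Nkg7 and Cd8b1. The medians of that list were 0.09 and 0.12, and 1.75% and 1.91% of all genes were called higher. The conventional T and myeloid sums also did not overlap between untreated genotypes, but did under rapamycin. The part of these markers in the results was not tested.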

How the data were processed

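Gene expression was measured on 16 arrays of stimulated Treg cells, 4 in each of 4 groups taken from the sample titles. The authors deposited log2 signal for 41345 probe sets, and RMA and Partek 6.6 are named, per the submitters' processing notes, without order or settings. The build is not given in the sources used. Probe sets were named through GEO's platform annotation: 23521 had 1 symbol, 1814 several and 16010 were not listed. The brightest probe set stood for a gene. Genes were tested where the highest group mean was above 3.549 (30th percentile over the table), leaving 16760 of 22180.

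A mean for each group was estimated with limma 3.58.1 in R 4.3.3 from the 16 arrays together (lmFit and eBayes, with 12 residual and 5.64 prior degrees of freedom). All tests are two-sided. Benjamini-Hochberg adjustment ran over all 16760 genes, and a call is an adjusted p under 0.05. SD is over 4 arrays, SE and 95% intervals are of the moderated fit. The fit was tested on simulated data. Promoters came from RefSeq (GRCm38.p6).

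The members and lists were chosen with earlier results of these data known. Named were the 10 members, Atg7, Foxp3, up to 4 called genes with the largest change per list, and the 3 genes most like each family; Btg2, Tnfaip3, the genes called only in averaged contrasts and the array values of Hspa1a, Rgs2 and Sik1 were chosen after values were seen. Alternatives were renewed quantile normalization, median centring, no or a stricter dim filter, mean of probe sets, trend and robust options, array weights, only the groups compared, the replicate number as a block, and each array left out. Contrasts averaged over the other factor were added after seeing the data. Arrays give no read depth, so their number limits precision. Deviations from group means correlated at -0.0829 to 0.358 over 24 same-numbered array pairs (median 0.023) and at -0.303 to 0.236 over 72 others (median -0.00927). As not every same-numbered pair correlated clearly above 0, the numbers were not taken as pairs in the main fit. These correlations do not settle whether some numbers mark arrays handled together. In both rapamycin groups Fos and Fosb rose in the order of replicates 1, 4, 2 and 3. The replicate block was run only as an alternative.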

Additional observations from a re-analysis of the deposited data

Results flagged for a closer look

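Egr2 in untreated Atg7+/- replicate 1 was flagged as a sample far from the others of its group. It read 9.03, while the other 3 arrays lay between 9.43 and 9.46. Among 40 sets of 4 arrays (10 genes in 4 groups) this was the 1 set past Dixon's 95% critical value, and chance flags about 1 in 20. Without it, the log2 change of Egr2 with rapamycin in Atg7+/- cells was -0.44 in place of -0.34, and that between untreated genotypes was 0.07 in place of 0.18. The same array was lowest of its group for Egr1, at 9.09, and for Egr3, at 7.87.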

How the results depend on the processing

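Limits: 4 arrays a group, 1 probe set a gene and a threshold shared with all genes make single calls fragile. Over 70 member results (10 genes, 7 contrasts) and up to 25 alternatives each, 1596 of 1720 recomputed values kept direction and side of the threshold, 70 lost a call, 23 gained one and 31 changed sign. The averaged changes of Fosb (both factors), Egr2 with Atg7 loss, and Junb, Egr3 and Nr4a1 with rapamycin kept their calls in all 24.

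The number of members called between untreated genotypes (1) was 2 with trend and robust options and 0 to 1 with an array left out. Between rapamycin genotypes (2) it was 1 on quantile normalization or median centring, 0 with only the groups compared, and 0 to 2 with an array left out. For rapamycin in Atg7+/- cells (4) it was 0 to 5 with an array left out, and in Atg7-/- cells (1) it was 2 on quantile normalization, with trend and robust options, with array weights and with the replicate block, 0 with only the groups compared, and 0 to 2 with an array left out. The averaged contrasts called 2 to 4 and 4 to 6 members with an array left out. With the replicate block Fosb gained a call for rapamycin in Atg7-/- and Atg7+/- cells (limma adjusted p = 0.0195 and 0.0201); the block changed no other member's call.

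Genes called between untreated genotypes (527) numbered 318 on median centring (165 higher, 153 lower), 974 with array weights and 284 to 694 with an array left out; between rapamycin genotypes (543) 350 on median centring (253 higher, 97 lower), 820 with the stricter filter, 886 with trend and robust options, 20 with only the groups compared and 95 to 789 with an array left out. With rapamycin 1559 to 2781 (Atg7+/-) and 2538 to 3419 (Atg7-/-) were called with an array left out, 0 to 1 for the difference of effects, and 1342 to 2097 and 5004 to 5777 for the averaged genotype and rapamycin contrasts.

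Sign changes were all of values that were not called. On median centring Nr4a3 between rapamycin genotypes was 0.034 and Nr4a1 averaged over treatments 0.002; with array weights the Fos difference of effects was -0.010 and Jun averaged over treatments -0.006. With an array left out, Egr1, Egr3 and Nr4a1 between untreated genotypes ran from -0.227 to 0.017, -0.137 to 0.015 and -0.137 to 0.010; Nr4a1 and Nr4a3 between rapamycin genotypes from -0.049 to 0.060 and -0.057 to 0.007; Egr1 with rapamycin in Atg7+/- cells from -0.125 to 0.024; the differences of effects of Fos, Fosb and Nr4a3 from -0.132 to 0.213, -0.120 to 0.197 and -0.022 to 0.057; Jun and Nr4a1 averaged over treatments from -0.079 to 0.150 and -0.062 to 0.017; and Jun and Nr4a2 averaged over genotypes from -0.197 to 0.018 and -0.052 to 0.006. The cause was not tested.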
